A study of Mus musculus with 8 samples.

Results

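Cholesterol is built from acetyl-CoA by a chain of enzymes, and the genes for these enzymes are controlled together by the transcription factor SREBP2. The data described here are the RNA levels of 8 genes of this pathway, taken from a list of 10 SREBP2-pathway genes, the others of which are not analysed here, and matched to the count table by their Entrez identifiers, among 27179 genes in all. They are Srebf2, which encodes SREBP2, Insig1, whose product holds SREBP2 in the endoplasmic reticulum, and the 6 enzyme genes Hmgcs1, Idi1, Fdft1, Sqle, Lss and Cyp51. None of the 8 encodes a cholesterol uptake receptor, so they are called cholesterol synthesis genes below. All 8 passed the filter on low counts. In mm10 (GENCODE vM21 gene models) the genes span Srebf2 (Entrez 20788) at chr15:82147181-82205379, Insig1 (Entrez 231070) at chr5:28071363-28078662, Hmgcs1 (Entrez 208715) at chr13:119690379-119708260, Idi1 (Entrez 319554) at chr13:8885501-8892451, Fdft1 (Entrez 14137) at chr14:63145150-63179578, Sqle (Entrez 20775) at chr15:59315077-59331192, Lss (Entrez 16987) at chr10:76531588-76557138 and Cyp51 (Entrez 13121) at chr5:4081145-4104746, with Fdft1 and Cyp51 on the minus strand and the others on the plus strand.

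When sterols run low in the endoplasmic reticulum, SCAP carries SREBP2 to the Golgi, where it is cut and released to the nucleus. There it acts on promoters that hold a sterol response element, usually beside a CCAAT box bound by NF-Y. When sterols are plentiful, INSIG proteins keep SCAP and SREBP2 in place. Dividing cells need cholesterol for new membrane, and the pathway also makes the isoprenoids that anchor small GTPases.

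Early large pre-B (early LPre-B) and small pre-B (sPre-B) cells were sorted from mouse bone marrow, and rRNA-depleted RNA was sequenced in 8 libraries, 2 for each of 4 groups. The cKO/Igh B1-8hi mice carried Mb1 Cre/+ together with Upf1 Flox/Flox and Igh B1-8hi/+, and the Ctrl/Igh B1-8hi mice carried Mb1 +/+ with the same Upf1 Flox/Flox and Igh B1-8hi/+. Both genotypes thus carried the floxed Upf1 alleles and the rearranged heavy chain knock-in, and they differed in Mb1-Cre, which is expressed from the Cd79a locus in B-lineage cells. Mice of both sexes were age-matched at 8 to 16 weeks. UPF1 is an RNA helicase best known for nonsense-mediated mRNA decay, and the comparisons ask how its loss alters RNA at each stage and how the stages differ within a genotype. Both gates took B220+ sIgM- cells negative for a lineage stain against CD3e, CD11b, CD11c, F4/80 and TER-119. The early LPre-B gate took large CD43+ CD2- cells and the sPre-B gate took small CD43lo CD25+ CD2+ cells.

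Library totals lay between 68516857 and 160426338 counts, so that 3 counts corresponded to 0.0217 to 0.0426 CPM (counts scaled to a common library size). Cd2, a gated marker, was at 4.95 to 6.18 CPM in early LPre-B and at 135 to 178 CPM in sPre-B libraries, and Kit, a marker of the large cells, was at 15.1 and 18.7 CPM in Ctrl early LPre-B but at 2.08 and 3.84 CPM in cKO early LPre-B. The floxed exons 4 to 6 are a small part of the gene, so the Upf1 count is no check of the deletion, and it was not lower in cKO libraries (Log2FC 0.16 ± 0.10 SE, adjusted p = 0.251 in early LPre-B and 0.59 ± 0.10, adjusted p = 0.00245 in sPre-B). Cd79a, which the Cre allele replaces in part, was 3.40-fold lower in cKO early LPre-B and 4.22-fold lower in cKO sPre-B (Log2FC −1.77 and −2.08). The part of the Cre allele in this fall was not tested. The 8 myeloid markers summed to 118 to 143 CPM in Ctrl early LPre-B, 336 to 393 in Ctrl sPre-B, 56.7 to 60.6 in cKO early LPre-B and 218 to 269 in cKO sPre-B. The 5 T cell markers summed to 1.36 to 1.94 CPM in every library, with Cd3g at 0 counts in 2 of them. Xist was at 304 and 151 counts in the replicate 2 libraries of the Ctrl early LPre-B and Ctrl sPre-B groups and at 290740 or more in the other 6, and Y-linked counts were at 19733 and 28205 in those 2 libraries and at 34 or fewer in the others. Sex therefore differed within the Ctrl groups but not within the cKO groups.

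The promoters of the genes that the results turn on are shown first, since SREBP2 is known to act through them. RefSeq promoter windows (GRCm38.p6, 250 bases before to 50 after the start) were found for 6 of the 8 genes, and not for Fdft1 and Sqle. They were searched on both strands for the sterol response element TCACNCCAC and for the CCAAT box CCAAT, which do not overlap each other in these windows. The 250 bases before the start are printed 5′ to 3′ on the strand of the gene, with the matches in capitals (ATTGG is CCAAT on the other strand). Hmgcs1 was the 1 gene with a sterol response element match, Idi1 showed the largest difference between stages, Lss the largest between genotypes, and Srebf2 encodes the factor.
Hmgcs1: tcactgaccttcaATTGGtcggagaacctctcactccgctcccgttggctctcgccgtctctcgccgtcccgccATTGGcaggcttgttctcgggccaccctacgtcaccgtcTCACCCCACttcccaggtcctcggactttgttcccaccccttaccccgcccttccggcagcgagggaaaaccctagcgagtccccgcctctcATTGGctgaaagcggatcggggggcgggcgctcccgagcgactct
Idi1: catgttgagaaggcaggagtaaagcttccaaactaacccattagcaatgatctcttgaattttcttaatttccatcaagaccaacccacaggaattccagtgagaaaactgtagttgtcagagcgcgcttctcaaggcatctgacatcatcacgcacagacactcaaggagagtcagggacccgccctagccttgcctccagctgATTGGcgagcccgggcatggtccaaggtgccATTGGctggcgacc
Lss: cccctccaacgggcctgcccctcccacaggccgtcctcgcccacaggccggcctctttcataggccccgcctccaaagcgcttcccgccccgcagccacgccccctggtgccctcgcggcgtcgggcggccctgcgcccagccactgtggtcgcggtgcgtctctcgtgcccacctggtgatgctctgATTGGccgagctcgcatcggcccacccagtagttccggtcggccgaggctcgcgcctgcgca
Srebf2: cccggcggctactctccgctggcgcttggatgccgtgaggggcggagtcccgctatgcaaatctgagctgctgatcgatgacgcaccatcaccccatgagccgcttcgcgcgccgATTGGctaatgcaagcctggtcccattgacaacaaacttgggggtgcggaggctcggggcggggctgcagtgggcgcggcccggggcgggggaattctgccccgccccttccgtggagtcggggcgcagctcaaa
These windows lie at chr13:119690101-119690350, chr13:8885356-8885605, chr10:76531355-76531604 and chr15:82147019-82147268, all on the plus strand. The sterol response element match of Hmgcs1 began 137 bases before the start, and such a match was present in 1.24% of all 32851 windows. A CCAAT box was present in 6 of 6 windows of these genes, against 37.4% of all windows. Hmgcs1 had 4 of them (237, 176 and 45 bases before the start and 11 bases into the transcript), Idi1 had 2 (45 and 14 bases before it), and Lss and Srebf2 had 1 each (62 and 135 bases before it). In Insig1 the box lay 216 bases and in Cyp51 29 bases before the start. Of the 13 other sterol enzyme genes with a window, 11 held a CCAAT box and 0 a match to the sterol response element. Counted by gene in the same way, 41.1% and 1.44% of all genes with a window did. A match here is a run of letters and was not tested as a binding site. Elements that differ from the searched string, or lie outside the windows, would not be found by this search.

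In Ctrl early LPre-B cells, Srebf2 had the highest level per length of the 8 genes, at 27.7 ± 3.50 CPM per kb of mRNA (SD, n = 2). It was followed by Hmgcs1 at 14.0 ± 0.726, Idi1 at 12.1 ± 1.76, Insig1 at 11 ± 0.778, Sqle at 8.16 ± 1.63, Fdft1 at 6.39 ± 0.480, Cyp51 at 6.15 ± 0.867 and Lss at 1.68 ± 0.347 CPM per kb. The levels of Hmgcs1 and Idi1, of Idi1 and Insig1, of Sqle and Fdft1, of Sqle and Cyp51 and of Fdft1 and Cyp51 lay within the sum of their SDs. In Ctrl sPre-B cells the order was different: Hmgcs1 at 8.85 ± 0.611 and Insig1 at 8.57 ± 1.99 CPM per kb followed Srebf2 at 25.5 ± 1.0, and Idi1 had dropped to 1.84 ± 0.117 and Sqle to 2.04 ± 0.304. All further levels are CPM scaled by TMM factors, and are compared within a gene only.

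**Figure D1:**
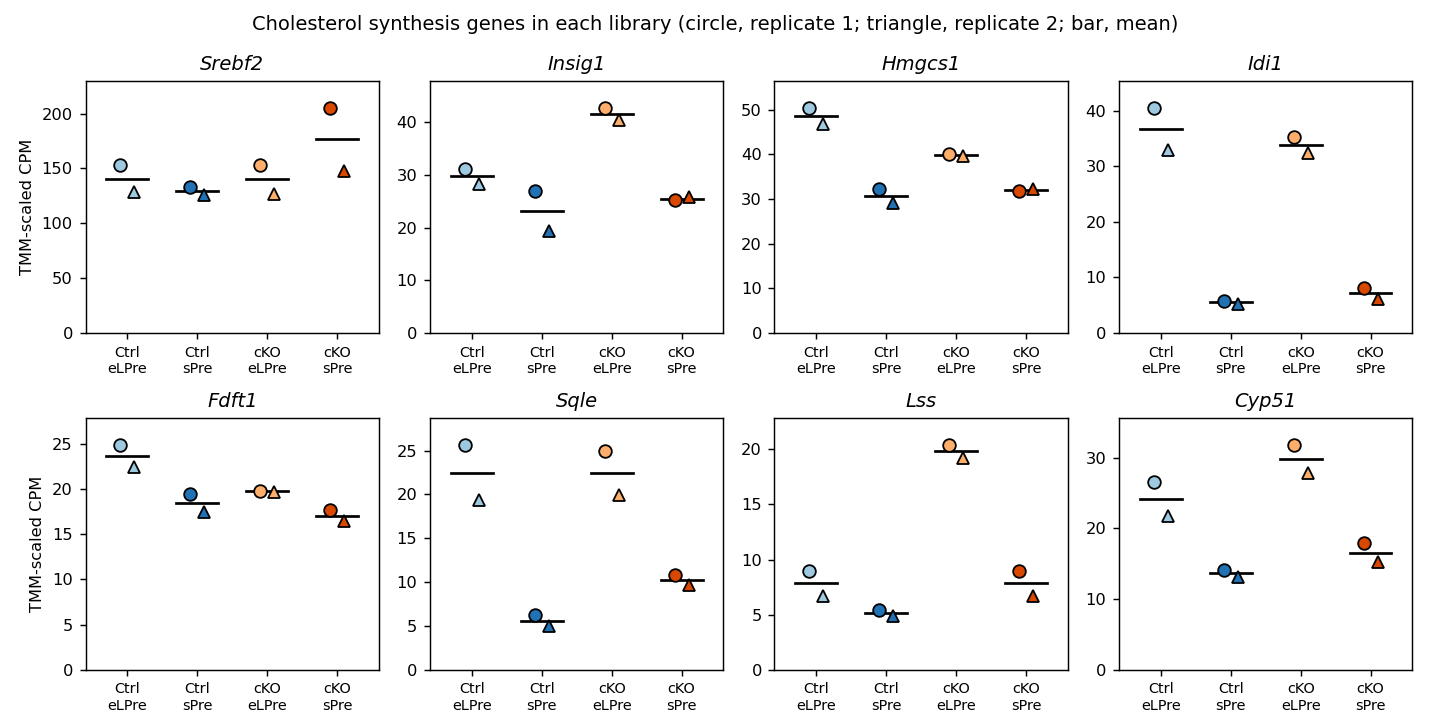
Level of each of the 8 cholesterol synthesis genes in each library, in TMM-scaled CPM on a linear axis from 0. Circles are replicate 1, triangles replicate 2 and black bars the mean of a group; Idi1 and Sqle were low in all 4 sPre-B libraries, and Lss stood at 19.2 and 20.4 CPM in cKO early LPre-B alone.

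Most of the 8 genes were lower in sPre-B than in early LPre-B cells. In Ctrl mice 6 of the 8 genes fell (edgeR's quasi-likelihood test, adjusted p under 0.05 over 17700 genes) and 0 rose, where 31.1% of all genes tested fell and 29.1% rose. Their median Log2FC was −0.63, against 0.02 for all genes. In cKO mice 6 of 8 fell and 0 rose, with 31.1% of all genes lower and 31.6% higher, and the median was −0.78 against 0.05. The 2 comparisons share no library. In these bulk samples, a lower level in every cell and fewer cells with a high level cannot be told apart.

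Idi1 encodes the isomerase that makes dimethylallyl diphosphate, a step upstream of all sterols and isoprenoids. It was at 40.5 and 33.0 CPM in Ctrl early LPre-B and at 5.80 and 5.30 CPM in Ctrl sPre-B libraries. In cKO cells it was at 35.3 and 32.5 CPM in early LPre-B and at 8.04 and 6.19 CPM in sPre-B. The stages were thus far apart in both genotypes, and the 4 early LPre-B libraries stood within a narrow range. The fall was 6.61-fold in Ctrl (Log2FC −2.72 ± 0.17 SE, adjusted p = 3.99e-06) and 4.77-fold in cKO (−2.25 ± 0.17, adjusted p = 8.76e-06). A close paralog, Idi2, was named after its values were seen: it had 14 to 81 counts in the early LPre-B and Ctrl sPre-B libraries and 193 and 220 counts in cKO sPre-B. How reads shared between Idi1 and Idi2 were counted was not tested.

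Sqle encodes squalene epoxidase, which starts the sterol branch proper. Its level was 25.7 and 19.3 CPM in Ctrl early LPre-B and 6.21 and 5.02 CPM in Ctrl sPre-B libraries, a fall of 4.01-fold (Log2FC −2.0 ± 0.19, adjusted p = 3.56e-05). In cKO cells the level was 25 and 19.9 CPM in early LPre-B and 10.9 and 9.70 CPM in sPre-B, a fall of 2.18-fold (−1.13 ± 0.19, adjusted p = 0.000788). The early LPre-B libraries of the genotypes overlapped, and the sPre-B libraries did not.

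Cyp51 encodes the demethylase that acts on lanosterol, the first sterol. It went from 26.6 and 21.8 CPM to 14.1 and 13.2 CPM in Ctrl cells and from 31.8 and 27.9 CPM to 18.0 and 15.2 CPM in cKO cells. The Log2FC was −0.83 ± 0.15 (adjusted p = 0.00121) and −0.85 ± 0.15 (adjusted p = 0.000958). Counting did not use strand, and Cyp51 shares 166 of its 4415 exon bases with Akap9 on the other strand. Akap9 moved the other way (Log2FC 0.99 and 0.94 with stage in Ctrl and cKO), and its part in the Cyp51 count was not tested. Hmgcs1 shares 557 of 4594 exon bases with Gm48342, and Idi1 shares 323 of 3505 with Gm48574, both on the other strand. Neither Gm48342 nor Gm48574 is named in the count table, and their part in the counts was not tested.

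Hmgcs1 encodes the synthase that condenses acetyl-CoA units into HMG-CoA. It was at 50.4 and 46.8 CPM in Ctrl early LPre-B and at 32.2 and 29.2 CPM in Ctrl sPre-B libraries, which do not overlap (Log2FC −0.66 ± 0.09, adjusted p = 0.000315). In cKO cells the values were closer, 40.0 and 39.6 CPM against 31.9 and 32.3 CPM (−0.31 ± 0.09, adjusted p = 0.0174). This smaller fall in cKO did not pass the test when any 1 of the 4 cKO libraries was left out (adjusted p 0.0666 to 0.0857).

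Lss encodes lanosterol synthase, which closes the sterol rings. In Ctrl cells it was at 8.97 and 6.68 CPM in early LPre-B and at 5.41 and 4.91 CPM in sPre-B libraries (Log2FC −0.60 ± 0.19, adjusted p = 0.0233). The Ctrl fall rested on few libraries, as it did not pass without Ctrl early LPre-B replicate 1 (−0.32, adjusted p = 0.225), Ctrl sPre-B replicate 1 (−0.61, adjusted p = 0.0692) or Ctrl sPre-B replicate 2 (−0.47, adjusted p = 0.154). In cKO cells the fall was 2.53-fold, from 20.4 and 19.2 CPM to 8.99 and 6.71 CPM (−1.34 ± 0.19, adjusted p = 0.000331), and it passed whichever library was left out (adjusted p 0.000385 to 0.00283).

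Fdft1 encodes squalene synthase, the branch point towards sterols. It was at 24.9 and 22.4 CPM in Ctrl early LPre-B and 19.5 and 17.4 CPM in Ctrl sPre-B libraries (Log2FC −0.36 ± 0.12, adjusted p = 0.0266). Without Ctrl early LPre-B replicate 1 the Log2FC was −0.22 (adjusted p = 0.172), without Ctrl sPre-B replicate 1 −0.37 (adjusted p = 0.0585), without Ctrl sPre-B replicate 2 −0.22 (adjusted p = 0.222) and without cKO early LPre-B replicate 2 −0.36 (adjusted p = 0.0501). With edgeR's likelihood-ratio test the Ctrl fall did not pass (−0.36, adjusted p = 0.0504), and without both Ctrl replicate 2 libraries it was −0.28. The cKO values of 19.8 and 19.7 CPM against 17.6 and 16.5 CPM did not pass (−0.21 ± 0.12, adjusted p = 0.142). Fdft1 shares 774 of 4227 exon bases with Ctsb, a cathepsin gene on the other strand, which rose with stage in Ctrl (Log2FC 0.85, adjusted p = 0.000358), and the part of Ctsb reads in the Fdft1 count was not tested.

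Insig1 and Srebf2 are the regulators among the 8 genes. Insig1 was at 31.2 and 28.3 CPM in Ctrl early LPre-B and 26.9 and 19.3 CPM in Ctrl sPre-B libraries, a difference that did not pass (Log2FC −0.36 ± 0.15, adjusted p = 0.0648). The Insig1 value depended on single libraries. It was −0.08 without Ctrl sPre-B replicate 2 (adjusted p = 0.616) and −0.23 without Ctrl early LPre-B replicate 1 (adjusted p = 0.333), and it passed without Ctrl sPre-B replicate 1 (−0.56, adjusted p = 0.00911), without the filter on low counts (−0.37, adjusted p = 0.0415) and with a block for replicate number (−0.37, adjusted p = 0.0365). In cKO cells Insig1 fell from 42.7 and 40.4 CPM to 25.2 and 25.8 CPM (−0.71 ± 0.15, adjusted p = 0.0033). By the same test Srebf2 did not pass in either genotype, with 153 and 128 CPM against 133 and 126 CPM in Ctrl (−0.12 ± 0.17, adjusted p = 0.559) and 153 and 127 CPM against 205 and 148 CPM in cKO (0.33 ± 0.17, adjusted p = 0.11). The cKO sPre-B libraries of Srebf2 lay far apart, and the Log2FC was 0.08 without replicate 1 of that group (adjusted p = 0.719) and 0.20 without cKO early LPre-B replicate 2 (adjusted p = 0.435). It passed without cKO sPre-B replicate 2 (0.55, adjusted p = 0.0202) and with the replicate block (0.32, adjusted p = 0.0246).

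**Figure D2:**
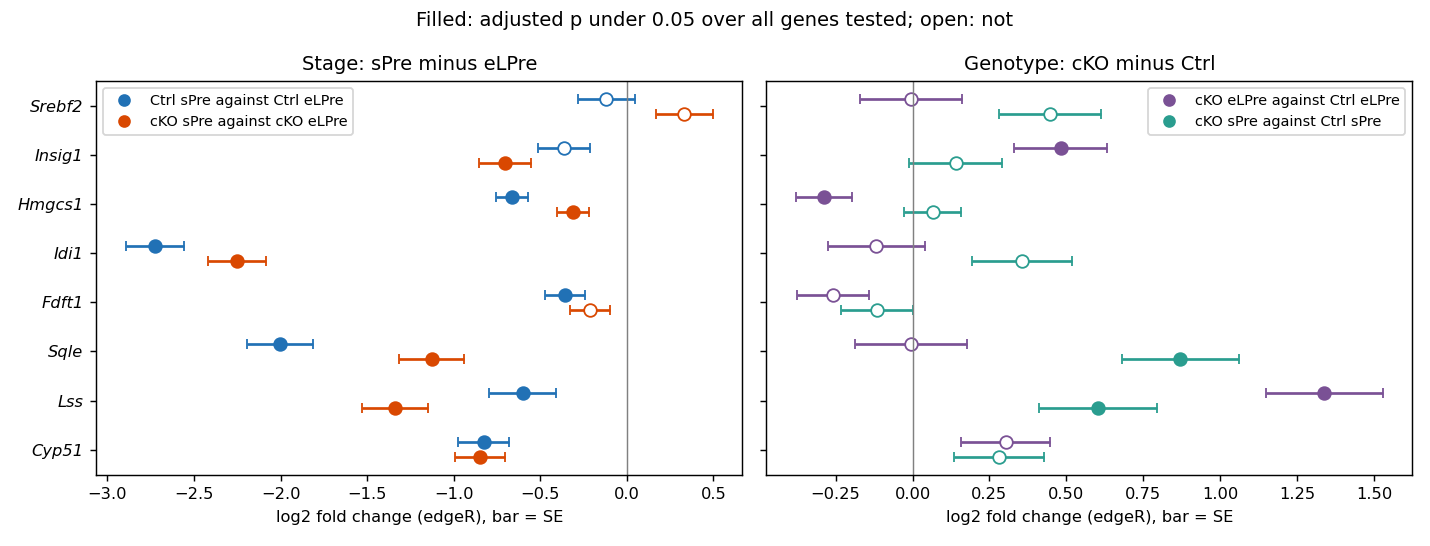
Log2 fold changes of the 8 genes between stages (left, sPre-B minus early LPre-B in Ctrl and cKO) and between genotypes (right, cKO minus Ctrl at each stage). Bars are the SE, derived from the F statistic of edgeR's test. Filled points passed an adjusted p of 0.05 over all genes tested; Idi1 and Sqle were the lowest points in Ctrl at −2.72 and −2.0, and Lss the highest between genotypes at 1.34.

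Most of the other enzymes of sterol synthesis fell with stage as well. Of 15 tested, 11 fell and 2 rose in Ctrl, and 11 fell and 2 rose in cKO, with medians of −0.66 and −0.67, where 31.1% of all genes fell in each genotype and 29.1% and 31.6% rose. Acat2, which supplies acetoacetyl-CoA to the first step, fell from 51.2 ± 2.89 to 15.2 ± 1.69 CPM in Ctrl (SD, n = 2) and from 44.7 ± 3.09 to 13.2 ± 0.414 CPM in cKO. Fdps, the farnesyl diphosphate synthase, fell in cKO from 21.3 ± 0.514 to 9.49 ± 1.19 CPM. The 2 that rose were Mvd, the mevalonate diphosphate decarboxylase, with a Log2FC of 0.99 in Ctrl (adjusted p = 0.0018) and 1.23 in cKO (adjusted p = 0.000473), and Tm7sf2, a sterol reductase, with 0.65 (adjusted p = 0.0125) and 0.47 (adjusted p = 0.0447). The call of Tm7sf2 in cKO was lost whichever library was left out (adjusted p 0.0525 to 0.242) and that in Ctrl without at least 1 of them (adjusted p up to 0.0858), while that of Mvd was kept.

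Genes around the synthesis chain moved in both directions with stage, and their counts are read against the shares of all genes that rose (29.1% in Ctrl, 31.6% in cKO) and fell (31.1% in each). Of 10 genes of SREBP processing, 6 rose and 1 fell in Ctrl, and 5 rose and 1 fell in cKO. Scap, the escort of SREBP2, was at 226 ± 19 CPM in Ctrl sPre-B against 115 ± 14.1 CPM in Ctrl early LPre-B (Log2FC 0.98, adjusted p = 0.000225), and at 109 ± 16 against 108 ± 0.436 CPM in cKO. Insig2, which like Insig1 retains SCAP, rose with a Log2FC of 0.87 in Ctrl and 0.72 in cKO. Stard4, a sterol carrier known as an SREBP2 target, fell from 28.0 ± 0.717 to 8.58 ± 1.20 CPM in Ctrl and from 26.5 ± 0.888 to 8.78 ± 0.258 CPM in cKO.

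In fatty acid synthesis and desaturation, 6 of 10 genes fell and 2 rose in each genotype. Fads1 and Fads2, desaturases of polyunsaturated fatty acids, fell in Ctrl by 2.76 and 2.32 on the log2 scale, and Elovl6, an elongase, fell by 2.29. Scd1, a desaturase that makes monounsaturated fatty acids, rose from 52.1 ± 2.29 to 204 ± 32.7 CPM in Ctrl and from 48.6 ± 4.86 to 270 ± 19.4 CPM in cKO. In the export, storage and LXR list, 6 of 9 genes rose in Ctrl and 5 of 9 in cKO, and 0 fell. Abca1, the cholesterol efflux pump, rose from 22.2 ± 2.60 to 230 ± 9.81 CPM in Ctrl and from 15.1 ± 6.45 to 125 ± 41.5 CPM in cKO. Cyp27a1, a sterol hydroxylase, rose from 0.128 ± 0.0542 to 5.87 ± 0.645 CPM in Ctrl. Mylip, which targets lipoprotein receptors for degradation, rose from 94.8 ± 8.59 to 435 ± 8.02 CPM in Ctrl (Log2FC 2.20). Among 11 genes of lysosomal and cellular cholesterol handling, 6 rose and 1 fell in Ctrl (median 0.49), and 4 rose and 1 fell in cKO (median 0.18), where the share that rose is close to that of all genes. The one that fell in Ctrl was Scarb1, a receptor for high-density lipoprotein, from 68.8 ± 12.0 to 14.2 ± 0.415 CPM (−2.28). Abca1 and Cyp27a1 are also expressed by macrophages, cells that the lineage stain was meant to remove, and the myeloid marker sum was higher in sPre-B than in early LPre-B libraries of both genotypes. Its part in these rises was not tested.

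**Figure D3:**
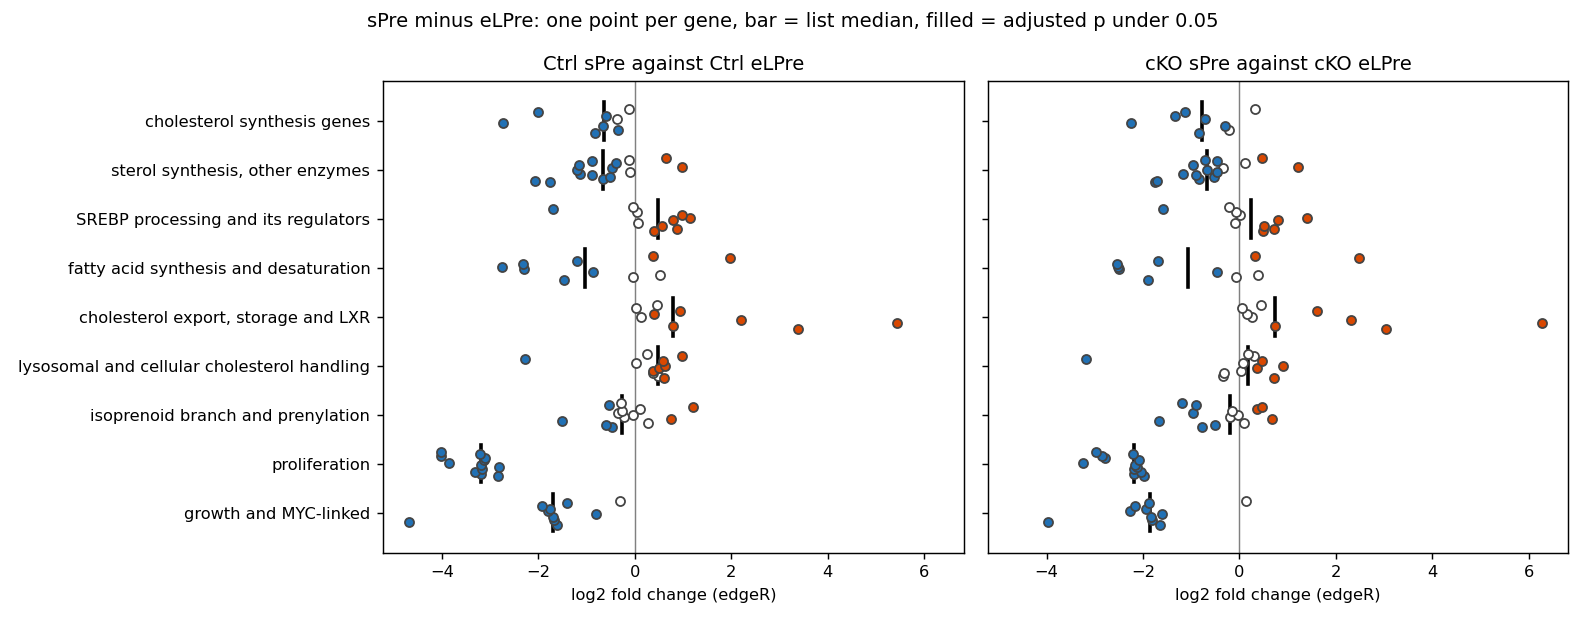
Log2 fold changes from early LPre-B to sPre-B of the cholesterol synthesis genes and of 8 gene lists, in Ctrl (left) and cKO (right); each point is a gene, filled where it passed the test, and bars are list medians. The synthesis genes and the other sterol enzymes have medians between −0.63 and −0.78, whereas the export list has medians of 0.79 and 0.73.

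Proliferation genes moved along with these changes. All 12 of them fell with stage in both genotypes, with medians of −3.18 in Ctrl and −2.19 in cKO, and their summed level was 10972 to 11330 CPM in Ctrl early LPre-B, 828 to 1563 in Ctrl sPre-B, 7551 to 7935 in cKO early LPre-B and 1484 to 1742 in cKO sPre-B. Of 10 growth and MYC-linked genes 9 fell in each genotype, and Myc fell with a Log2FC of −4.68 in Ctrl and −3.98 in cKO. The part of cell size and division in the fall of the cholesterol synthesis genes was not tested. Markers of other cells moved with stage too. Stroma and endothelium markers summed to 136 to 157 CPM in Ctrl early LPre-B and 284 to 294 CPM in Ctrl sPre-B. In cKO they summed to 116 to 127 and 251 to 265 CPM. Sums of immature or mature B cell markers were higher in sPre-B of both genotypes, and those of NK and innate lymphoid markers lower. The part of these markers was not tested.

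Fewer of the cholesterol synthesis genes passed the test between genotypes, in comparisons that use the same 8 libraries again. In early LPre-B cells 2 of 8 were higher in cKO and 1 was lower, where 14.5% of all genes tested were higher and 16.9% lower, and the median Log2FC was −0.005 against −0.06 for all genes. In sPre-B cells 2 of 8 were higher and 0 lower, where 19.8% of all genes were higher and 14.9% lower, with a median of 0.32 against 0.01. Leaving out 1 library gave medians of −0.16 to 0.21 in early LPre-B and 0.16 to 0.46 in sPre-B. Other markers moved along at both stages. The 6 markers of immature or mature B cells summed to 297 to 345 CPM in Ctrl and 587 to 780 CPM in cKO early LPre-B, with 3 of 6 higher (Cd22, H2-Aa and Cd74), and to 714 to 773 CPM in Ctrl sPre-B against 1823 and 1073 CPM in replicates 1 and 2 of cKO sPre-B, with 4 of 6 higher. The 3 plasmacytoid dendritic cell markers summed to 10.4 to 11.5 CPM in Ctrl and 15.3 to 21.0 CPM in cKO early LPre-B. Of these 3, only Bst2 passed as higher there, and they moved in both directions (Log2FC −1.39 to 0.84). In sPre-B they summed to 11.2 to 11.4 CPM in Ctrl and 33.2 to 35.6 CPM in cKO, with 2 of 3 higher (Bst2 and Ccr9). Their part in the genotype differences was not tested. Without both Ctrl replicate 2 libraries, in which sex differed, 2 were higher and 0 lower in early LPre-B, and 1 was higher in sPre-B.

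Lss showed the largest of these differences. In early LPre-B cells it was at 20.4 and 19.2 CPM in cKO against 8.97 and 6.68 CPM in Ctrl, which was 2.53-fold higher (Log2FC 1.34 ± 0.19, adjusted p = 0.00133). It passed whichever library was left out, with an adjusted p of 0.00108 to 0.0109. In sPre-B cells the values were 8.99 and 6.71 CPM in cKO against 5.41 and 4.91 CPM in Ctrl (0.60 ± 0.19, adjusted p = 0.039). That difference was lost without either Ctrl sPre-B library (0.64, adjusted p = 0.0992 without replicate 1 and 0.50, adjusted p = 0.188 without replicate 2), without cKO sPre-B replicate 1 (0.38, adjusted p = 0.239), and without cKO early LPre-B replicate 1 or 2 (0.60, adjusted p = 0.0615 and 0.0607). An antisense gene, 4930483K19Rik, shares 381 of the 10787 exon bases of Lss, and it was named after its values were seen. It was at 2.40 and 2.21 CPM in cKO against 1.28 and 0.692 CPM in Ctrl early LPre-B (1.21 ± 0.35, adjusted p = 0.0316), and reads of Lss and this gene cannot be told apart where they overlap.

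Sqle differed in sPre-B cells, where it was 1.83-fold higher in cKO (Log2FC 0.87 ± 0.19, adjusted p = 0.0081). Without Ctrl sPre-B replicate 2 the Log2FC was 0.69 (adjusted p = 0.0625), and without both Ctrl replicate 2 libraries it was 0.69 (adjusted p = 0.0465). In early LPre-B cells the genotypes overlapped (−0.005 ± 0.18, adjusted p = 0.99).

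Insig1 was 1.40-fold higher in cKO early LPre-B cells (Log2FC 0.48 ± 0.15, adjusted p = 0.0398), and Hmgcs1 was lower (−0.29 ± 0.09, adjusted p = 0.044). Both stood close to the threshold. Insig1 was lost without any 1 of 6 libraries, the 4 early LPre-B and the 2 cKO sPre-B libraries (0.44 to 0.59, adjusted p 0.0599 to 0.176), and Hmgcs1 without any 1 of the 8 (adjusted p 0.0740 to 0.212). In sPre-B cells Insig1 (0.14 ± 0.15, adjusted p = 0.511) and Hmgcs1 (0.07 ± 0.09, adjusted p = 0.619) did not pass.

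The other 4 genes passed in neither stage by edgeR's quasi-likelihood test. Srebf2 had a Log2FC of −0.005 ± 0.17 in early LPre-B and 0.45 ± 0.17 in sPre-B (adjusted p = 0.068). In sPre-B its cKO values of 205 and 148 CPM lay above the Ctrl values of 133 and 126 CPM, but the Log2FC was 0.19 without cKO sPre-B replicate 1 (adjusted p = 0.449) and 0.66 without replicate 2 (adjusted p = 0.0184). It also passed with the likelihood-ratio test (adjusted p = 0.0460), library totals (0.51, adjusted p = 0.0480), no filter (adjusted p = 0.0217) and the replicate block (0.43, adjusted p = 0.0141). Cyp51 was at 0.30 ± 0.14 in early LPre-B (adjusted p = 0.145), where it passed with library totals (0.48, adjusted p = 0.0294) and with the block (0.31, adjusted p = 0.0469) but not when any 1 library was left out (0.21 to 0.49, adjusted p 0.0650 to 0.489), and at 0.28 ± 0.15 in sPre-B (adjusted p = 0.17). Idi1 was at −0.12 ± 0.16 (adjusted p = 0.612) and 0.36 ± 0.16 (adjusted p = 0.126), of which the second passed with the block (0.35, adjusted p = 0.0440) and ranged from 0.16 without cKO sPre-B replicate 1 to 0.53 without replicate 2 (adjusted p = 0.583 and 0.0562). Fdft1 was at −0.26 ± 0.12 (adjusted p = 0.127) and −0.11 ± 0.12 (adjusted p = 0.487).

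Whether the genotype difference depended on the stage was tested with the interaction. By edgeR's quasi-likelihood test 0 of 8 genes passed, where 4.24% of all genes did, 3 had an unadjusted P under 0.05 (Sqle, Lss and Hmgcs1), and DESeq2 called 1. That gene was Sqle, with a Log2FC of 0.88 ± 0.26 (adjusted p = 0.102 in edgeR and 0.0345 in DESeq2). Sqle also passed without the filter (adjusted p = 0.0355) and with the replicate block (adjusted p = 0.0250), but not when any 1 library was left out (0.58 to 1.05, adjusted p 0.117 to 0.327). Lss was at −0.74 ± 0.27 (adjusted p = 0.165; −0.76, adjusted p = 0.0490 with the block within genotype) and Hmgcs1 at 0.35 ± 0.13 (adjusted p = 0.171).

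In the related lists the counts between genotypes are read against the same shares of all genes, 14.5% higher and 16.9% lower in early LPre-B and 19.8% and 14.9% in sPre-B. Of the 15 other sterol enzymes 3 were higher and 2 lower in cKO early LPre-B, which became 0 and 0 without cKO early LPre-B replicate 1, 1 and 1 without Ctrl early LPre-B replicate 2, 2 and 1 without cKO early LPre-B replicate 2, 4 and 0 without Ctrl early LPre-B replicate 1, and 7 and 1 with library totals. In cKO sPre-B 4 were higher and 1 lower, and leaving out 1 library gave 3 to 4 and 1 to 2. In sPre-B cells the 3 enzymes that turn mevalonate into isopentenyl diphosphate were higher in cKO. These were Mvk at 9.30 ± 0.844 against 5.48 ± 0.134 CPM (Log2FC 0.76, adjusted p = 0.00711), Pmvk at 10.8 ± 0.405 against 6.31 ± 0.00761 CPM (0.77, adjusted p = 0.0022), and Mvd at 15.4 ± 3.52 against 7.73 ± 0.802 CPM (0.99, adjusted p = 0.00397). Hsd17b7, a later sterol reductase, was lower at 5.49 ± 0.641 against 11.2 ± 1.59 CPM (−1.02, adjusted p = 0.00136). These 4 passed whichever library was left out.

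Of 13 genes of the isoprenoid branch and prenylation, 8 were higher and 0 lower in cKO early LPre-B, and 6 were higher and 1 lower in cKO sPre-B. Leaving out 1 library gave 6 to 9 higher in early LPre-B and 4 to 6 higher in sPre-B. Rabggtb, a subunit of the enzyme that prenylates Rab GTPases, was at 100 ± 2.64 CPM in cKO against 27.1 ± 0.0691 CPM in Ctrl early LPre-B (Log2FC 1.89, adjusted p = 1.08e-05) and at 53.8 ± 0.882 against 18.6 ± 1.25 CPM in sPre-B (1.53, adjusted p = 1.98e-05). Coq2, of ubiquinone synthesis, was higher in both stages (0.83 and 0.53). In fatty acid synthesis and desaturation, 4 of 10 genes were higher and 2 lower in cKO early LPre-B, and 3 were higher and 2 lower in cKO sPre-B. Leaving out 1 library gave 3 to 4 higher and 0 to 2 lower in early LPre-B, with 0 lower without replicate 1 of either early LPre-B group and 1 without replicate 2 of either, and 2 to 3 higher and 0 to 3 lower in sPre-B, with 0 lower without cKO sPre-B replicate 1 and 1 without Ctrl sPre-B replicate 2. Acly, which makes cytosolic acetyl-CoA, was lower at both stages (−0.44 and −0.48). Fads1 was higher, at 91.6 ± 7.16 against 49.5 ± 5.24 CPM in early LPre-B and 15.9 ± 0.666 against 7.33 ± 1.06 CPM in sPre-B.

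Of 10 genes of SREBP processing, 1 was higher and 2 lower in cKO early LPre-B, and 1 higher and 4 lower in cKO sPre-B. The lower counts depended on single libraries: leaving out 1 gave 0 to 2 in early LPre-B, with 0 without cKO early LPre-B replicate 1, and 1 to 5 in sPre-B, with 1 without Ctrl sPre-B replicate 2 or either cKO sPre-B library and 2 without Ctrl sPre-B replicate 1. Ube2g2, a ubiquitin-conjugating enzyme of the endoplasmic reticulum, was the higher one in both stages (Log2FC 1.10 and 0.91). Scap was lower in cKO sPre-B, with a Log2FC of −1.06 (adjusted p = 0.000531). In the export, storage and LXR list 1 of 9 genes was higher and 2 lower in cKO early LPre-B, and 2 were higher and 2 lower in cKO sPre-B. Leaving out 1 library gave 1 to 2 lower in early LPre-B, and 1 to 2 higher and 1 to 3 lower in sPre-B. Soat2, which esterifies cholesterol for storage, was at 1.41 ± 0.193 CPM in cKO against 0.115 ± 0.019 CPM in Ctrl early LPre-B and 1.92 ± 0.143 against 0.155 ± 0.00165 CPM in sPre-B, a large fold at a low level (3.63 and 3.62). Mylip was lower in cKO at both stages (−0.83 and −0.71). Of the 11 lysosomal and cellular cholesterol handling genes 2 were higher and 1 lower in cKO early LPre-B, with 0 of each without either cKO library of that stage. In cKO sPre-B 0 were higher and 4 lower, with 2 lower without Ctrl sPre-B replicate 2 or cKO sPre-B replicate 2. In proliferation genes 1 of 12 was lower in cKO early LPre-B, a count that was 7 without either Ctrl sPre-B library and 0 without any other 1 library. In cKO sPre-B 4 of 12 were higher, with 9 without Ctrl sPre-B replicate 1 and 2 without cKO sPre-B replicate 2. Of the 10 growth and MYC-linked genes 4 were higher in cKO early LPre-B and 3 in cKO sPre-B, and 0 were lower. These counts moved when 1 library was left out. Myc was higher at both stages (0.86 and 1.55). Its early LPre-B Log2FC ran from 0.66 to 1.08 without 1 library, and that call was not always kept.

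**Figure D4:**
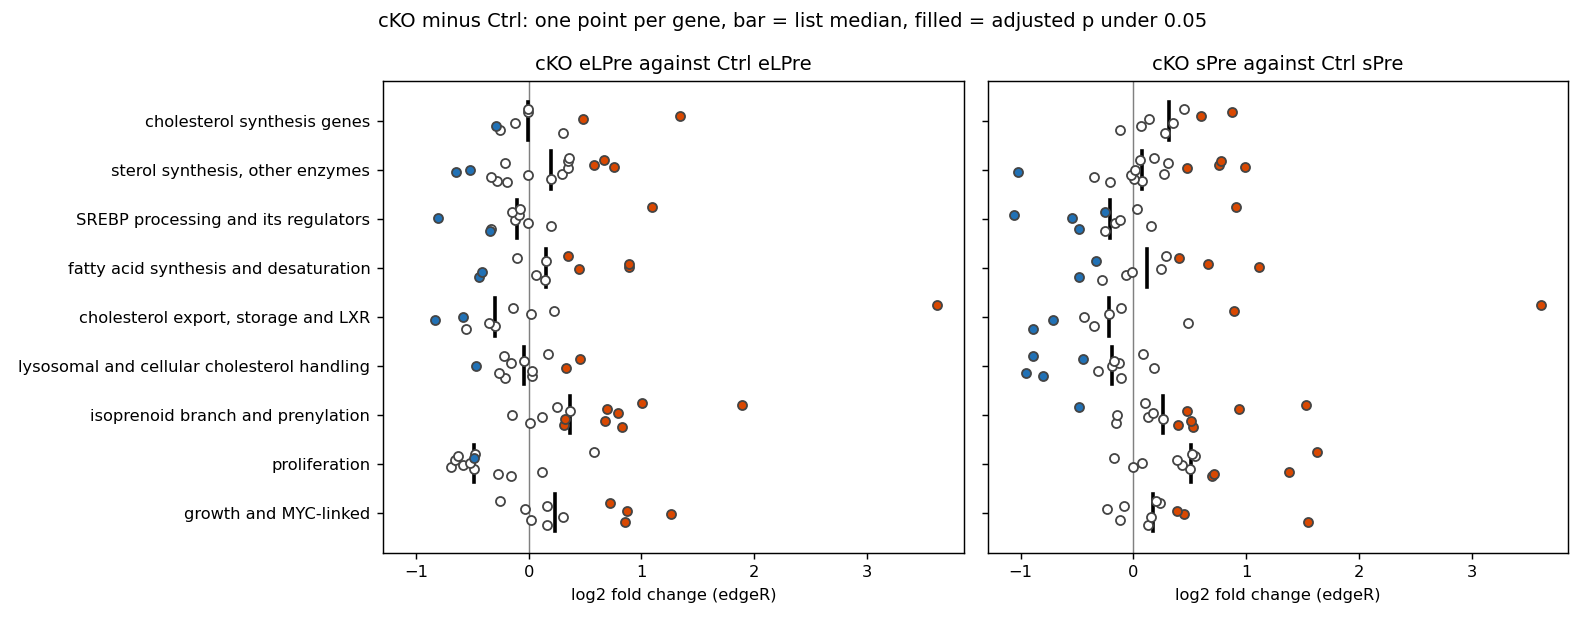
Log2 fold changes of cKO against Ctrl for the cholesterol synthesis genes and 8 gene lists in early LPre-B (left) and sPre-B (right) cells; each point is a gene, filled where it passed the test, and bars are list medians. Of the synthesis genes 3 of 8 passed in early LPre-B and 2 of 8 in sPre-B, and Rabggtb (1.89 and 1.53) and Soat2 (3.63 and 3.62) stand far to the right.

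As a description, each gene was set against the mean standardized log2 CPM of the 8 genes over the 8 libraries, a mean that includes the gene itself. Pearson's r was 0.98 for Sqle and Cyp51, 0.95 for Idi1, 0.86 for Insig1 and Hmgcs1, 0.79 for Lss, 0.71 for Fdft1 and 0.16 for Srebf2. Among 10433 other genes of at least 5 CPM on average, those with the highest r included Rab3d (0.992), Gfer (0.989), Pdia3 (0.986), Cdkn2aipnl (0.985), Tmed10 (0.984), Slc2a3 (0.983), Gemin4 (0.982) and Ndufab1 (0.981). Rab3d, for example, was at 12.3 ± 2.93 and 14.0 ± 2.11 CPM in Ctrl and cKO early LPre-B and at 5.46 ± 1.24 and 8.12 ± 1.85 CPM in the sPre-B groups. The libraries share 2 stages and 2 genotypes, so these correlations mostly follow the group means.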

How the data were processed

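Sorted early LPre- and sPre-B cells gave 8 directional RNA-seq libraries, 2 for each of 4 groups. Per the methods, the authors ran Trim Galore, then HISAT2 against mm10 (paired-end, unstranded), and deposited raw featureCounts counts by Entrez identifier. Versions and the annotation were not given in the sources used here. Of 27179 identifiers, 25275 were named from RefSeq.

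Counts were fitted with edgeR 4.0.16 in R 4.3.3, with TMM factors of 0.862 to 1.09, a filter by group that kept 17700 genes, 1 mean per group over all 8 libraries, and two-sided quasi-likelihood F tests adjusted by Benjamini-Hochberg over all genes tested. The test was checked on simulated counts. Genes passed at an adjusted p under 0.05. The SE of a Log2FC was derived from the test, as its absolute value divided by the square root of F. Levels per kb used the longest RefSeq-linked mRNA of a gene. Alternatives included DESeq2 1.42.0, other scalings and filters, a replicate block and leaving out libraries.

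The members and gene lists were chosen with earlier results of these data known. Named are the 8 genes, up to 3 largest increases and decreases per list and comparison (every library in the higher group holding 50 or more counts), and the most alike genes, less a few that are not reported here. The study calls its plotted data points independent biological replicates, and the sex-linked counts differ between the Ctrl replicates, so these came from different mice. The animals behind the cKO replicates are not given, and there p-values may measure technical spread.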

Additional observations from a re-analysis of the deposited data

Results flagged for a closer look

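By edgeR's quasi-likelihood test 0 of the 8 cholesterol synthesis genes passed the interaction of stage and genotype, with 3 at an unadjusted P under 0.05, while DESeq2 called Sqle. Of 90 genes tested in the related lists 5 passed it (5.56%, against 4.24% of all genes). The count in the 12 proliferation genes was not stable: 1 was higher, which became 10 without Ctrl sPre-B replicate 1, 0 without any other 1 library, and 7 in DESeq2 or without the filter. The 5 genes are given as the Log2FC of cKO against Ctrl in sPre-B minus that in early LPre-B. Scap, the SREBP2 escort, was at −0.97 (adjusted p = 0.0281), from a Log2FC of −0.09 in early LPre-B and −1.06 in sPre-B. Scarb1, the lipoprotein receptor, was at −0.89 (adjusted p = 0.0297), higher in cKO early LPre-B (0.45) and lower in cKO sPre-B (−0.44). Rce1, which trims prenylated proteins, was at −0.90 (adjusted p = 0.026), with 34.5 ± 0.767 CPM in cKO against 17.2 ± 1.15 CPM in Ctrl early LPre-B and 15.2 ± 0.0887 against 14.1 ± 1.31 CPM in sPre-B. Bub1, a mitotic checkpoint kinase, was at 1.26 (adjusted p = 0.0415), and Nop56, a nucleolar protein of ribosome synthesis, at −0.81 (adjusted p = 0.0181). Each of the 5 lost its call when at least 1 library was left out, with the adjusted p reaching 0.0949 for Scap, 0.119 for Scarb1, 0.107 for Rce1, 0.144 for Bub1 and 0.0750 for Nop56.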

How the results depend on the processing

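With 2 libraries per group, leaving out 1 leaves a lone library that is assumed to vary like the other groups. Scaling by library totals moved the median of all genes to 0.22 with stage in Ctrl, 0.13 in cKO, and 0.11 and 0.07 between genotypes in early LPre-B and sPre-B. Under it the synthesis genes' median was −0.43 with stage in Ctrl, and 4 fell instead of 6, as Fdft1 (−0.15, adjusted p = 0.242) and Lss (−0.39, adjusted p = 0.0933) did not pass. The counts of genes lower with stage stayed within 1.5 times under every alternative, and leaving out 1 library gave 4 to 6 lower in Ctrl (median −0.69 to −0.44) and 5 to 6 lower and 0 to 1 higher in cKO.

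Same-numbered libraries correlated at 0.395, 0.254, 0.155 and 0.0858 in the 4 comparisons, but no source ties a number to an animal or day. With the replicate block 1 gene was higher with stage in cKO (Srebf2, 0.32), also with the block within genotype, 4 were higher in cKO sPre-B (Srebf2 and Idi1 added), Insig1 passed with stage in Ctrl and Cyp51 in cKO early LPre-B, and 1 passed the interaction, Sqle (0.88, adjusted p = 0.025). With the block within genotype 1 passed it in each direction, Sqle (0.88) and Lss (−0.76).

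In cKO early LPre-B, 0 genes were lower with the likelihood-ratio test, library totals, no filter, the 4 libraries alone or without both Ctrl replicate 2 libraries, and leaving out 1 library gave 1 to 2 higher and 0 lower. The median lay between −0.16 and 0.21 without 1 library, so it has no stable sign. In cKO sPre-B, 3 genes were higher with the likelihood-ratio test, library totals or no filter (Srebf2 added), 1 gene was higher with the 4 libraries alone and without both Ctrl replicate 2 libraries, and leaving out 1 library gave 0 to 3 (median 0.16 to 0.46). The interaction had 1 gene higher without the filter and in DESeq2, Sqle at 0.87 and 0.83.

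Directions turned only for genes that did not pass. Srebf2 turned with stage in Ctrl (0.087 with library totals, −0.17 to 0.072 without 1 library) and in cKO early LPre-B (0.00188 with median-ratio factors, 0.17 with library totals, 0.000309 without the filter, 0.065 with 4 libraries, 0.00196 in DESeq2, −0.14 to 0.17 without 1 library). Sqle turned there too (0.0018 with median-ratio factors, 0.17 with library totals, 0.065 with 4 libraries, 0.00144 in DESeq2, −0.18 to 0.25 without 1 library), as did Idi1 (0.059 with library totals, −0.21 to 0.076 without 1 library). In sPre-B, Insig1 and Hmgcs1 were at −0.12 and −0.039 without both Ctrl replicate 2 libraries, and at −0.11 to 0.36 and −0.038 to 0.10 without 1 library. In the interaction, Fdft1 ranged from −0.014 to 0.19 and Cyp51 from −0.25 to 0.091 without 1 library. The causes were not tested. Of the 10 most alike genes, 6 were among the 10 with library totals. Depth limits low genes such as Soat2 and Idi2.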
